A study of Mus musculus with 6 samples.

Results

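The genes encoding the protein subunits of the mitochondrial ribosome were examined in tumors of the mouse gliomasphere line mG7080. The members were the rows of the deposited gene table whose symbol starts with Mrpl or Mrps followed by a digit. This gave 77 of 16729 genes, of which 48 carry the large subunit prefix Mrpl and 29 the small subunit prefix Mrps. All 77 had enough reads to be tested.

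The line came from mice with mutations that include p53 and Nf1. It was implanted intracranially in hosts of strain C57BL/6, either wild type (WT) or knockout for Esm1 (Esm1 KO), the gene of the secreted proteoglycan Endocan. RNA was extracted from 3 resected tumors per host genotype, giving the libraries WT 1 to WT 3 and KO 1 to KO 3. Hosts were 6 to 8 weeks old by the methods of the study, and female and aged 8 to 12 weeks by its reporting summary. All 6 tumors carry the mutations of the injected line, and the Esm1 deletion is in the host and not in the tumor cells. The line was the only tumor source for these libraries. Each library holds RNA of tumor and host cells together, so fewer cells of a type and less RNA per cell cannot be told apart.

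Mitochondrial ribosomes translate the few proteins encoded by mitochondrial DNA, which are core subunits of the respiratory chain and the ATP synthase. Their proteins are all encoded in the nucleus, made in the cytosol and imported. The large subunit (products of most Mrpl genes) forms peptide bonds and guides the new chain to the inner membrane, whereas the small subunit (most Mrps genes) binds the mRNA and decodes it. Some of these proteins have bacterial homologs, and the rest were added in the mitochondrial lineage.

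Gene counts summed to 17632070 to 22241832 reads per library, and members took 0.198% to 0.354% of them. The least covered member had 36 to 86 reads per library and the most covered 2436 to 2974, so each member was measured well above a handful of reads. Esm1 itself had 25, 21 and 82 reads in WT 1, WT 2 and WT 3. In KO 1 and KO 3 it had 1 and 4 reads, but the library labelled KO 2 held 24, a WT level. On the first principal component of all genes (83.83% of the variance) that library scored -34.97, between WT 1 (-19.02) and WT 3 (-68.88), while KO 1 and KO 3 scored 88.58 and 122. Comparisons are therefore given over all 6 libraries, where no gene passed the edgeR test, and over the 5 libraries without KO 2. That library was left out after these values were seen, and the component scores include the members. P-values over 5 libraries thus depend on a choice made on the data, with KO 1 and KO 3 as the only KO tumors. With edgeR, Esm1 had a log2 fold change (KO over WT) of -2.20 (SE 1.01, adjusted p = 0.192) over 6 libraries and -3.89 (SE 0.98, adjusted p = 0.0226) over 5. The value over 5 is no test of Esm1, since KO 2 was left out for its Esm1 reads.

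To show where members start, the 150 bases upstream of the RefSeq start (GRCm38.p6, 5′ to 3′ on the strand of the gene) are printed for Mrpl12, Mrpl17, Mrpl52 and Mrps22, which were among the lowest members of their subunits in KO, and for Mrpl48, the highest of the large subunit. Capitals mark matches to motifs of factors known for nuclear genes of mitochondria, described further on. The regions are chr11:120484487-120484636 (plus strand) for Mrpl12, chr7:105811088-105811237 (minus) for Mrpl17, chr14:54426759-54426908 (plus) for Mrpl52, chr9:98601680-98601829 (minus) for Mrps22 and chr7:100608302-100608451 (minus) for the outermost start of Mrpl48.
Mrpl12: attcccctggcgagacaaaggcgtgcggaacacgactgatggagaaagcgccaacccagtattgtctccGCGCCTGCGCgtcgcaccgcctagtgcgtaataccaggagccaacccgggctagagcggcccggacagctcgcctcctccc
Mrpl17: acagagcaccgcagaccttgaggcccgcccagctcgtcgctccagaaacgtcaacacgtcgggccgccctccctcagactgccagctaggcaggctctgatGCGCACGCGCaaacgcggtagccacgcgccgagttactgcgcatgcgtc
Mrpl52: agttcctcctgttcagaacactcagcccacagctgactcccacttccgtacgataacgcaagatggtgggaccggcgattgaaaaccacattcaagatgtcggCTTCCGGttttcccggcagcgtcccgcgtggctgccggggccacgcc
Mrps22: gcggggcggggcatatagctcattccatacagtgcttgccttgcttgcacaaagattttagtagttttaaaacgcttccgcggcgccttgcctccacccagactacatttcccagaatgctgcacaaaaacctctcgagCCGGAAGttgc
Mrpl48: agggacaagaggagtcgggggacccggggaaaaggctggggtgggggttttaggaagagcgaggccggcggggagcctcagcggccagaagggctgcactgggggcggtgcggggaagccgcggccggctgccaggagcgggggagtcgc
The capitals are an NRF1 match in Mrpl12 and Mrpl17 and an ETS match in Mrpl52 and Mrps22, and the stretch of Mrpl48 holds no match. Mrpl17 also has an ETS match in the part of the searched window not printed, and another RefSeq start of Mrpl48 has an ETS match in the 150 bases before it. The printed stretches do not stand for all low members. Mrpl22 holds an ETS match in the same 150 bases, but Mrps24, Mrps18b and Mrps9, also among the lowest of their subunit, hold no NRF1 or ETS match there.

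The levels of most mitochondrial ribosomal protein genes were lower in tumors of KO hosts, by a modest amount and mainly in KO 1 and KO 3. The median member lay at -0.47 and -0.43 from the WT mean (log2 scale) in these libraries, against -0.11 in KO 2 and -0.18 in WT 1. Over all 6 libraries 67 of 77 members had a log2 fold change under 0, against 51.3% of all genes tested, and the median was -0.36, against -0.02 over all genes. No member passed the test (edgeR quasi-likelihood test, adjusted p under 0.05, lowest adjusted p = 0.184), as was the case for every gene (0% called in either direction). At an unadjusted p under 0.05, 19 members were lower (11.9% of all genes) and 0 higher (15.2% of all genes). Over the same 6 libraries limma-voom called 0 members, and DESeq2 called 5 lower (2.63% of all genes) and 0 higher (4.68% of all genes). The 5 were Mrpl15, Mrpl19, Mrpl22, Mrpl45 and Mrps22.

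Without KO 2 the median was -0.48 (28.1% lower), and 67 members were again under 0 (50.8% of all genes). There 34 members (44.2%) fell, meaning called lower at an adjusted p under 0.05 (edgeR), against 28.3% of all genes tested. Only Mrpl48 rose, 1.3% of members against 24.5% of all genes. The fallen members were 22 of 48 Mrpl and 12 of 29 Mrps genes. These counts depend on the libraries kept. Leaving out 1 more library put the share of members called lower below that of all genes in 3 cases: 14 members (18.2%) against 21.5% of all genes without WT 2, 4 (5.19%) against 13.9% without WT 3, and 2 (2.6%) against 9.4% without KO 1. Without KO 1 or without KO 3 only 1 KO library was left, so calls from these fits measure no spread between KO tumors. Without WT 1 the share of members called lower was above that of all genes, with 50 members (64.9%) against 34.2%. Mrpl48 was no longer called without WT 3, KO 1 or KO 3. The 4 members called lower without WT 3 were Mrps7, Mrpl17, Mrpl15 and Mrpl52, and 0 were higher, against 2.87% of all genes.

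**Figure D1:**
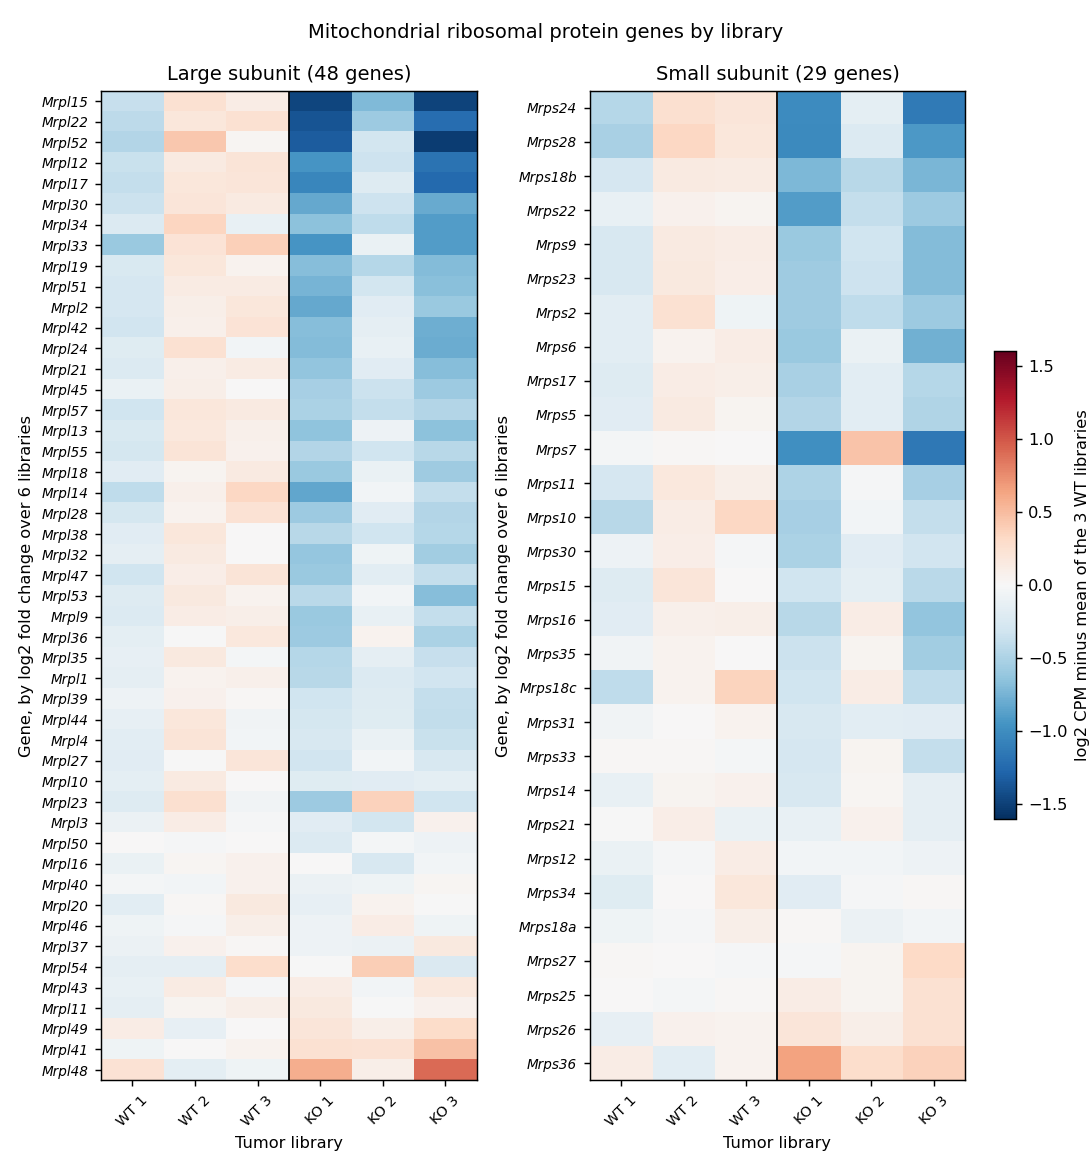
Level of each of the 77 genes in each tumor library, as log2 CPM minus the mean of the 3 WT libraries (color scale), with large subunit genes left and small subunit genes right, ordered by log2 fold change over 6 libraries. Most rows are blue in KO 1 and KO 3 and paler in KO 2, and the rows at the bottom, such as Mrpl48 and Mrps36, are red.

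Per library, the median member lay at -0.18 from the WT mean in WT 1 on the log2 scale and above it in WT 2 and WT 3 (0.10 and 0.08). KO 1 and KO 3 were at -0.47 and -0.43, and KO 2 at -0.11, within the range of the WT libraries. The median over all genes stayed between -0.03 and 0.03 in every library. Of the 77 members, 60 in KO 1 and 55 in KO 3 were below every WT library, compared with 27 in KO 2, in which 39 were within the WT range and 11 above it. The share of all genes was not computed for single libraries, so these counts have no background. Below every WT library in both KO 1 and KO 3 were 54 members (70.1%), against 40.2% of all genes. The heat map of the members shows the same order of libraries.

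Among large subunit genes, the lowest log2 fold changes over 6 libraries were those of Mrpl15, Mrpl22, Mrpl52, Mrpl12 and Mrpl17. Mrpl15 (chromosome 1, 4773198 to 4785750 in GRCm38), a core protein with a bacterial homolog, had 52.4, 80.0 and 73.1 CPM (reads scaled to library size with TMM factors) in WT 1 to WT 3. In KO 1, KO 2 and KO 3 it had 24.4, 41.4 and 24.1 CPM. All KO libraries were below all WT libraries, and KO 2 was the highest of the KO group. The log2 fold change was -1.21 (SE 0.29, adjusted p = 0.184, edgeR) over 6 libraries and -1.49 (SE 0.21, adjusted p = 0.00812), or 2.81-fold lower, over 5.

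Mrpl22 (chromosome 11, 58170043 to 58179580), whose protein lines the tunnel through which the new peptide leaves, had 15.9, 24.1 and 25.2 CPM in WT and 8.21, 14.2 and 9.16 CPM in KO 1 to KO 3. Here too the groups did not overlap, and over 5 libraries it was 2.49-fold lower (log2 fold change -1.32, SE 0.25, adjusted p = 0.0129, edgeR), against -1.07 (SE 0.30, adjusted p = 0.184) over 6. Mrpl12 encodes the stalk protein that contacts translation factors and lies on chromosome 11 from 120484637 to 120488754. It had 79.7, 112.1 and 117.7 CPM in WT and 52.7, 80.7 and 44.8 in KO, so that KO 2 lay just above WT 1 and the other KO libraries below all WT libraries. The fall without KO 2 was 2.11-fold (log2 fold change -1.08, SE 0.21, adjusted p = 0.0135, edgeR), against -0.82 (SE 0.28, adjusted p = 0.184) over 6. An RNA on the opposite strand, Gm16755, overlaps Mrpl12, and reads of both cannot be told apart if counting ignored the strand.

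Mrpl52, a protein found only in mitochondrial ribosomes, was the most variable of these genes within WT, with 35.0, 65.2 and 49.3 CPM, and had 19.2, 39.4 and 16.8 CPM in KO. KO 2 again lay inside the WT range. Over 5 libraries Mrpl52 was 2.76-fold lower (log2 fold change -1.46, SE 0.28, adjusted p = 0.0132, edgeR), against -1.01 (SE 0.40, adjusted p = 0.184) over 6. Mrpl17, near the exit of the peptide tunnel, behaved alike in order of libraries, with 48.7, 71.7 and 72.7 CPM in WT against 30.6, 54.8 and 26.8 in KO (2.24-fold lower over 5, adjusted p = 0.0121, edgeR, and a log2 fold change of -0.80, adjusted p = 0.184, over 6). Mrpl19, at the interface between the subunits, and Mrpl45, which anchors the ribosome to the inner membrane, also fell over 5 libraries (log2 fold changes -0.69 and -0.55, adjusted p = 0.0191 and 0.0181, edgeR, against -0.63 and -0.50 over 6, adjusted p = 0.184 for each), and in both genes every KO library was below every WT library.

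Not all large subunit genes were lower. Mrpl48 (chromosome 7, 100545779 to 100608301), a protein of the central protuberance, had 58.9, 45.1 and 47.8 CPM in WT and 75.5, 53.8 and 94.3 in KO. KO 1 and KO 3 were above every WT library and KO 2 inside their range. Its log2 fold change was 0.55 (SE 0.23, adjusted p = 0.186, edgeR) over 6 libraries and 0.75 (SE 0.17, adjusted p = 0.019), a 1.68-fold rise, over 5. Exons of Mrpl48 overlap those of Rab6a on the opposite strand and a pseudogene, Mrpl48-ps, is annotated, so the source of its reads is uncertain. Mrpl41, also described as an apoptosis regulator that binds Bcl-2, was higher in all KO libraries (40.8, 40.2 and 47.4 CPM) than in all WT libraries (32.8, 34.4 and 35.8), with a log2 fold change of 0.30 (SE 0.13, adjusted p = 0.19, edgeR) over 6 and 0.37 (SE 0.13, adjusted p = 0.0577) over 5. Mrpl49 had a log2 fold change of 0.25 over 5 libraries (adjusted p = 0.17, edgeR), and Mrpl11, a protein at the base of the stalk, of 0.12 (adjusted p = 0.483). Mrpl11 thus differed in value from Mrpl12, its neighbour in the stalk region, but the difference between these genes was not tested. Mrpl44, which has an RNase III-like fold, had 24.2, 29.9 and 25.5 CPM in WT and 21.8, 23.1 and 20.1 in KO, without overlap, and did not pass the test (adjusted p = 0.118 over 5, edgeR).

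In the small subunit the lowest log2 fold changes over 6 libraries were those of Mrps24, Mrps28, Mrps18b, Mrps22 and Mrps9. Mrps24 encodes the counterpart of a bacterial protein at the mRNA entry channel. It had 32.3, 52.8 and 50.7 CPM in WT and 22.0, 39.6 and 20.2 in KO, with KO 2 inside the WT range, and was 2.14-fold lower over 5 libraries (log2 fold change -1.10, SE 0.25, adjusted p = 0.0174, edgeR), against -0.75 (SE 0.34, adjusted p = 0.19) over 6. Exons of Urgcp overlap it on the same strand. Mrps28, the counterpart of a bacterial mRNA-binding protein, showed the same order, with 12.5, 22.5 and 20.3 CPM in WT and 8.84, 15.4 and 9.42 in KO (2.01-fold lower over 5, adjusted p = 0.0317, edgeR, and a log2 fold change of -0.73, adjusted p = 0.191, over 6).

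Mrps22, a mitochondria-specific protein mutated in inherited respiratory chain disease, had 26.0, 29.4 and 29.1 CPM in WT and 15.1, 21.5 and 18.8 in KO. The groups did not overlap, with KO 2 highest among KO libraries, and the log2 fold change was -0.63 (SE 0.18, adjusted p = 0.184, edgeR) over 6 and -0.73 (SE 0.17, adjusted p = 0.018) over 5. Mrps9, which reaches the tRNA in the peptidyl site, was also apart in all libraries, with 44.8, 59.3 and 58.3 CPM in WT and 35.7, 42.9 and 33.3 in KO (1.56-fold lower over 5, adjusted p = 0.0242, edgeR, and a log2 fold change of -0.56, adjusted p = 0.184, over 6). Over 6 libraries 21 members (27.3%) were lower without overlap, against 14.6% of all genes, and 4 members (5.19%) higher, against 13.2%. Over 5 these were 54 (70.1%) against 40.2% and 6 (7.79%) against 37.5%.

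The Mrps18 paralogs all resemble the same bacterial protein, but current names give only Mrps18c a bacterial counterpart, so that Mrps18a and Mrps18b are counted as mitochondria-specific further on. Mrps18b had 15.5, 20.6 and 20.5 CPM in WT and 11.4, 13.8 and 11.3 in KO and fell over 5 libraries (log2 fold change -0.72, SE 0.20, adjusted p = 0.0274, edgeR, and -0.65, adjusted p = 0.184, over 6). Mrps18c had 19.6, 27.2 and 33.3 CPM in WT, a range that held all 3 KO libraries (20.9, 28.3 and 19.7). Mrps18a, whose protein sits in the large subunit despite its symbol, had 35.4, 36.6 and 39.7 CPM in WT and 37.6, 34.8 and 36.1 in KO, a log2 fold change of -0.01 (SE 0.12, adjusted p = 0.945, edgeR) over 5. The differences among the paralogs were not tested.

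Mrps12, which lies at the decoding centre, and Mrps34 were within a narrow band. Mrps12 had 27.5, 29.1 and 32.0 CPM in WT and 28.7, 28.5 and 27.8 in KO, and Mrps34 33.9, 38.8 and 43.9 against 34.2, 38.2 and 39.3. The log2 fold changes over 5 libraries were -0.06 (SE 0.13) and -0.08 (SE 0.16), and neither gene passed the test (adjusted p = 0.724 and 0.707, edgeR). Mrps30, a large subunit protein by structure, had 28.9, 32.9 and 30.4 CPM in WT and 21.7, 27.1 and 24.8 in KO (adjusted p = 0.059 over 5, edgeR).

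The highest values of the small subunit prefix were those of Mrps36, Mrps26 and Mrps25, and in each all KO libraries were above all WT libraries. Mrps36, now assigned to the 2-oxoglutarate dehydrogenase complex and not to the ribosome, had 3.43, 2.79 and 3.26 CPM in WT and 4.91, 3.83 and 4.06 in KO (log2 fold change 0.42, SE 0.24, adjusted p = 0.243, edgeR, over 6), and has 3 annotated pseudogenes. Mrps26, a mitochondria-specific protein, had 33.3, 38.2 and 38.0 CPM in WT and 41.8, 38.9 and 43.2 in KO, with KO 2 just above WT 2. Mrps25, also mitochondria-specific, had 129.0, 126.0 and 130.4 CPM in WT and 139.0, 132.4 and 151.8 in KO. None of the 3 passed the test over 5 libraries (adjusted p = 0.138, 0.182 and 0.258, edgeR).

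Mrps7, chosen for description after its values were seen, set KO 2 apart from the other KO libraries. This protein of the head of the small subunit (chromosome 11, 115604140 to 115608036) had 82.8, 85.4 and 84.7 CPM in WT, 42.7 and 38.2 in KO 1 and KO 3, and 115.5 in KO 2, the highest of all libraries. Its log2 fold change was -0.38 (SE 0.44, adjusted p = 0.519, edgeR) over 6 libraries and -1.06 (SE 0.12, adjusted p = 0.00798) over 5. Exons of Gga3 and Mif4gd overlap Mrps7 on the opposite strand. In all, exons of 32 members overlap those of another gene, 8 on the same strand and 27 on the opposite strand, and the strand setting of the counting was not given in the sources used here.

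Levels between genes were compared as deposited FPKM, which is per length of gene. Averaged over the 6 libraries, the highest were Mrpl30, Mrpl52 and Mrpl12 (95.0, 94.6 and 88.3 FPKM), and the lowest Mrps36, Mrpl23 and Mrpl17 (5.14, 5.18 and 7.83 FPKM). By CPM Mrpl17 was not among the lowest members (26.8 to 72.7 CPM), so its low rank depends on the gene length used. The highest members also had a wide spread over libraries: Mrpl52 ranged from 35.2 FPKM in KO 3 to 173.6 in WT 2, and Mrpl30 from 55.0 in KO 3 to 140.4 in WT 2. The order was not that of every library: in KO 1 and KO 3 the highest were Mrpl48 (72.6 and 86.0 FPKM) and Mrps21 (72.1 and 67.3). Mrpl30 fell over 5 libraries (log2 fold change -0.83, SE 0.19, adjusted p = 0.0191, edgeR, and -0.68, adjusted p = 0.184, over 6). Mrpl23, of the tunnel exit, had only 2.05 to 3.96 CPM and was highest in KO 2 (log2 fold change -0.45, SE 0.29, adjusted p = 0.229, edgeR, over 5).

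Summed over its 48 genes, the large subunit had 1661, 2089 and 2039 CPM in WT (1929.7 ± 233.8, SD, n = 3) and 1391, 1693 and 1439 in KO (1507.6 ± 162.4, n = 3). KO 2 lay just above WT 1, so the groups overlapped by these libraries. The 29 small subunit genes summed to 965, 1136 and 1126 CPM in WT (1075.6 ± 95.8) and 839, 1037 and 851 in KO (909.3 ± 111.0). KO 1 and KO 3 were below all WT libraries for both subunits, at 0.733 times the WT mean for the large and 0.786 times for the small subunit.

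**Figure D2:**
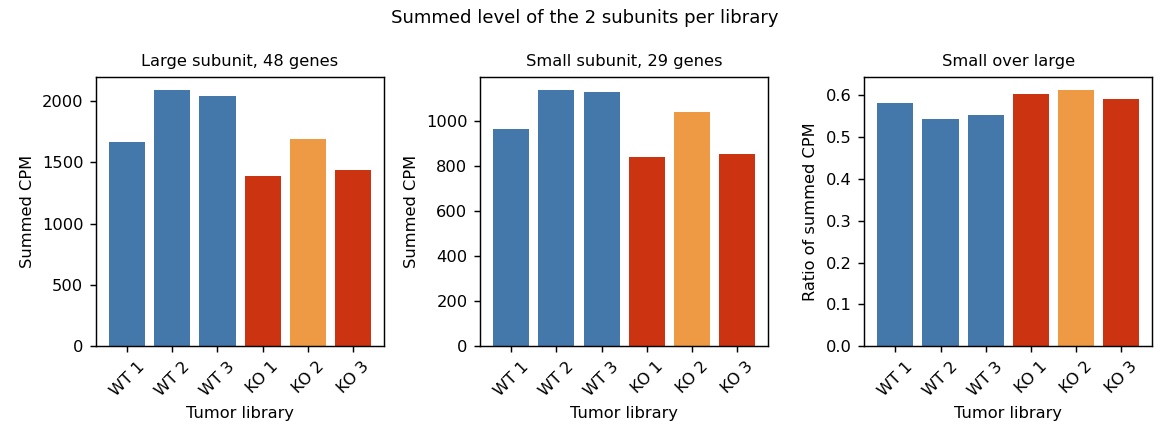
Bars give the summed CPM of the 48 large and 29 small subunit genes, and the ratio of small over large, in each library (WT blue, KO red, KO 2 orange), with all axes from 0. The sums are lowest in KO 1 and KO 3, and the ratio is between 0.592 and 0.613 in KO against 0.544 to 0.581 in WT.

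The ratio of small to large subunit CPM was 0.581, 0.544 and 0.552 in WT (0.559 ± 0.0195, n = 3) and 0.603, 0.613 and 0.592 in KO (0.603 ± 0.0105, n = 3), higher in all KO libraries, KO 2 included. With Mrps18a and Mrps30 moved to the large subunit and Mrps36 left out, it was 0.520, 0.493 and 0.499 in WT and 0.534, 0.554 and 0.524 in KO. By FPKM it was 0.565, 0.525 and 0.534 against 0.594, 0.589 and 0.573. The separation rested in part on Mrps25, the most abundant small subunit gene by CPM: without it the ratio was 0.503, 0.483 and 0.488 in WT and 0.503, 0.534 and 0.486 in KO, and the groups overlapped. Exons of Nr2c2 overlap Mrps25 on the opposite strand. Counting each gene equally, the median log2 fold change was -0.40 for large and -0.32 for small subunit genes over 6 libraries, and -0.49 and -0.44 over 5. With subunits assigned by structure the medians were -0.38 and -0.34 over 6, and -0.48 for both subunits over 5.

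The members were also divided by origin, taken from the current names of ribosomal proteins. The 46 proteins with a bacterial homolog had a median log2 fold change of -0.40 over 6 libraries and -0.53 over 5, with 45 under 0 in both, and 25 of them (54.3%) fell over 5 libraries. The 30 mitochondria-specific proteins had medians of -0.22 and -0.27, with 22 under 0, and 9 (30%) fell and 1 rose, where 28.3% of all genes fell and 24.5% rose. The order was alike in both subunits. Over 5 libraries the median was -0.57 for the 30 large subunit genes with a bacterial homolog and -0.24 for the 20 without, and -0.50 and -0.27 for the 16 and 10 small subunit genes. By FPKM the bacterial homologs had a higher median level (33.2 against 20.9). No test was made of these classes, whose ranges overlap, from -1.49 to 0.12 for bacterial homologs and from -1.46 to 0.75 for the others.

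**Figure D3:**
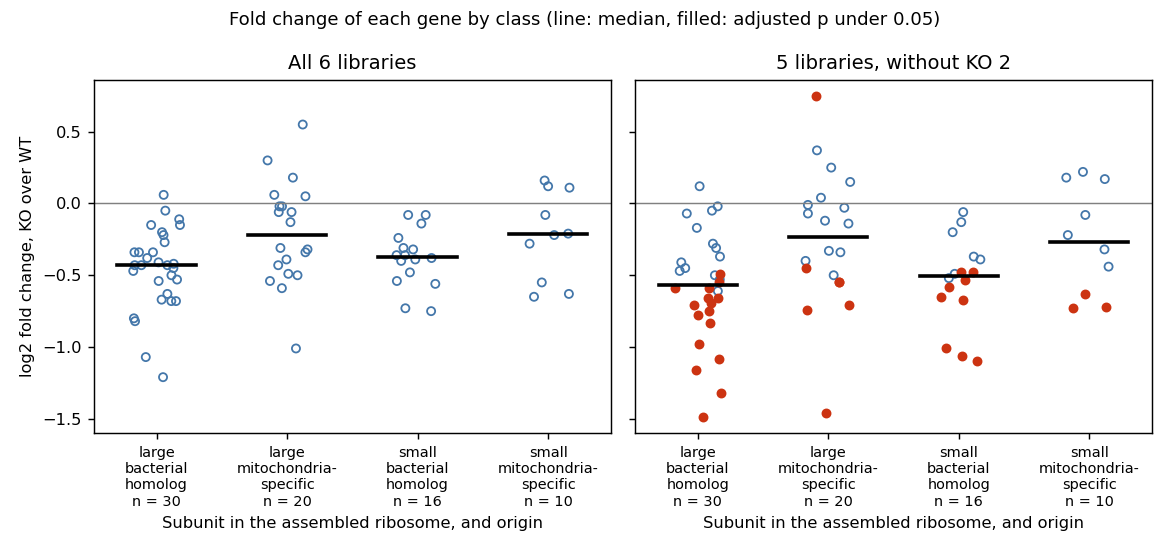
Each point is a gene, placed by its log2 fold change (KO over WT) in 4 classes of subunit and origin, left over 6 libraries and right over 5, with Mrps36 not shown. Black lines are medians and filled points passed the test. The medians are lower for bacterial homologs in both subunits and Mrpl48 is the filled point at 0.75.

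Of the 77 members, 68 had a RefSeq promoter window, from 250 bases before to 50 bases after the start, and these were searched on both strands. The ETS motif (CCGGAAG) was in 25 members (36.8%), against 17% of tested genes with a window and 9.93% of all windows by gene. The NRF1 motif (GCGCA, any base, then GCGC) was in 13 (19.1%), against 9.85% and 5.19%, and the YY1 motif (AANATGGC) in 20 (29.4%), against 8.81% and 6.96%. The E-box bound by Myc (CACGTG) was in 5 (7.35%), against 11% and 8.09%, and CCAAT in 27 (39.7%), against 42.3% and 41.1%. None of these motifs contains another.

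Members with and without a motif had close medians over 5 libraries: -0.53 and -0.47 for ETS, -0.55 and -0.45 for NRF1, -0.51 and -0.47 for YY1, -0.39 and -0.48 for the E-box, and -0.37 and -0.50 for CCAAT. In the sequences printed above, the match starts 81 bases before the start in Mrpl12, 49 in Mrpl17, 47 in Mrpl52 and 11 in Mrps22. A match describes letters and not binding.

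Genes that work with the ribosome were examined as lists, to be read against the 28.3% of all genes that fell and the 24.5% that rose over 5 libraries. Of 6 ribosomal proteins whose symbols fall outside the name pattern, 2 fell (33.3%) and 0 rose over 5 libraries (median -0.31, and -0.29 over 6): Chchd1 (log2 fold change -0.89, SE 0.21, edgeR), a small subunit protein, and Ptcd3 (-0.73, SE 0.17), a pentatricopeptide repeat protein of the small subunit. The GTP-binding subunit Dap3 had -0.25 (SE 0.12), the release factor-like Ict1 -0.38 (SE 0.16) and Aurkaip1 0.09 (SE 0.12), and none of these passed the test. Over 6 libraries 0 genes of this or any other list passed.

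Of 12 mitochondrial translation factors in the file, 4 fell (33.3%) and 0 rose over 5 libraries (median -0.44, and -0.38 over 6). They were the elongation factors Tufm (-0.68, SE 0.17, edgeR) and Gfm1 (-0.45, SE 0.13), the initiation factor Mtif3 (-0.66, SE 0.15) and the translational activator Taco1 (-0.66, SE 0.19). Gfm2, which recycles ribosomes, had the highest value over 6 libraries (0.10, SE 0.13) and was at 0.04 (SE 0.12) over 5, not called in either. Of 24 assembly factors 7 fell (29.2%, near the share of all genes) and 0 rose (median -0.13, and -0.11 over 6), with the GTPase Gtpbp10 lowest (-1.46, SE 0.29) and the endonuclease-like Ybey highest (0.53, SE 0.21, adjusted p = 0.078, edgeR). Gtpbp10 had 18.1, 31.4 and 29.6 CPM in WT and 10.7, 18.9 and 8.38 in KO, with KO 2 just above WT 1.

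Of 17 mitochondrial aminoacyl-tRNA synthetases 5 fell (29.4%, near the share of all genes) and 2 rose over 5 libraries (median -0.23, and -0.20 over 6), with Mars2 for methionine the lowest over 6 libraries (-0.86 over 5, SE 0.20, edgeR) and Aars2 for alanine the highest (0.51, SE 0.14). Of 10 genes of mitochondrial DNA transcription and mRNA stability 5 fell (50%) and 0 rose (median -0.50, and -0.39 over 6), among them Tefm, the transcription elongation factor (-1.18, SE 0.25), and the DNA polymerase Polg (-1.34, SE 0.20). Mtpap, the poly(A) polymerase, was the highest (0.22, SE 0.13, not called). Of the 13 mRNAs of mitochondrial DNA, which these ribosomes translate, 0 were found by symbol in the gene table, so they were not analysed here.

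Of 18 other mitochondrial housekeeping genes, 5 fell (27.8%) and 3 rose (16.7%) over 5 libraries (median 0.02, and -0.05 over 6). The chaperonin Hspd1 was the lowest, with 418.9, 614.4 and 569.3 CPM in WT and 148.7, 305.3 and 153.6 in KO (-1.82, SE 0.24, adjusted p = 0.008, edgeR). The import receptor Tomm20 was the highest, with 241.8, 163.3 and 185.1 CPM in WT and 330.6, 187.6 and 371.9 in KO (0.84, SE 0.21, adjusted p = 0.023, edgeR). The summed list had 3296, 3519 and 3532 CPM in WT and 3217, 2874 and 3424 in KO, lowest in KO 2.

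**Figure D4:**
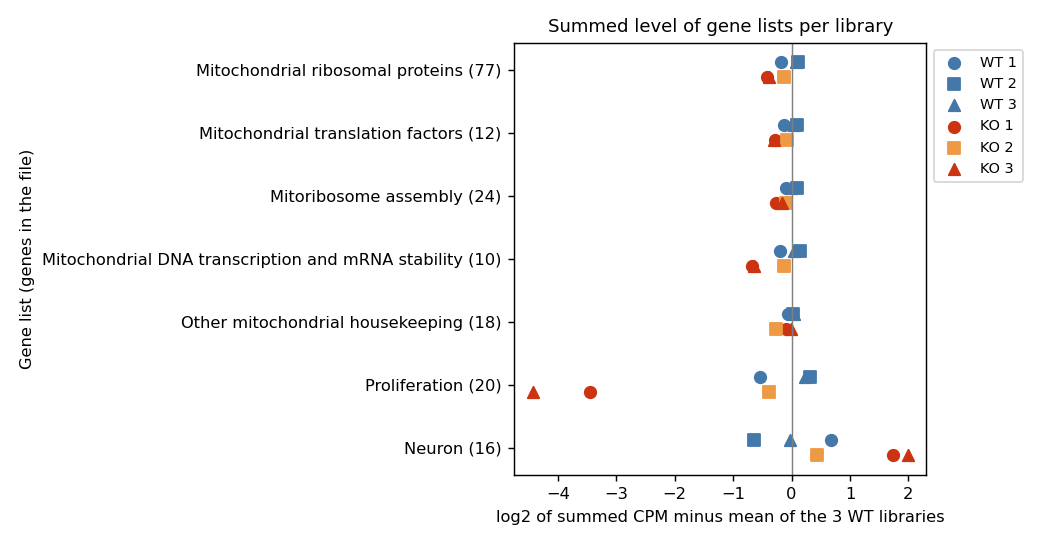
Summed CPM of each gene list per library, as log2 minus the mean of the 3 WT libraries (WT upper row of each pair, KO lower row). The ribosomal genes, translation factors and transcription genes are lowest in KO 1 and KO 3, proliferation genes lie far lower in these libraries, and neuron genes far higher.

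Proliferation genes and Myc were lowest in KO 1 and KO 3, as the members were, while neuron markers were highest there. The summed level of 20 proliferation genes was 1837, 3343 and 3141 CPM in WT, 245 and 125 in KO 1 and KO 3, and 2041 in KO 2. Over 5 libraries 19 of the 20 fell (95%, against 28.3% of all genes), with a median of -4.35, against -0.48 in the members. Over 6 libraries the median was -1.80 and 0 of the 20 were called by edgeR, also at an unadjusted p under 0.05. Myc, a regulator of ribosome and mitochondrial genes, had 168.2, 285.3 and 189.7 CPM in WT and 8.78, 130.8 and 4.17 in KO (log2 fold change -5.05, SE 0.46, over 5, and -2.19, SE 1.25, adjusted p = 0.247, over 6, edgeR). The 16 neuron markers summed to 7010, 2816 and 4359 CPM in WT and 14750, 5969 and 17495 in KO. Over 5 libraries 14 of 16 rose (87.5%, against 24.5% of all genes) and 0 fell (median 1.81, and 1.43 with 0 called over 6). In WT 1, the WT library with the lowest ribosomal genes, neuron markers were highest and proliferation genes lowest among WT libraries.

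The 10 oligodendrocyte markers summed to 3562, 1387 and 1976 CPM in WT and 7883, 3385 and 4068 in KO. Over 5 libraries 0 of them fell and 2 (20%) rose, where 28.3% of all genes fell and 24.5% rose. The 8 astrocyte markers summed to 3769, 3020 and 3027 CPM in WT and 5882, 4079 and 5362 in KO (2 fell, 25%, and 4 rose, 50%). Slc1a2 alone made up most of this sum in KO 1 and KO 3 (4143.5 and 3755.2 CPM). Gfap (log2 fold change -2.24, SE 0.21) and Sox9 (-1.46, SE 0.24) were the 2 that fell over 5 libraries. The 10 markers of microglia and macrophages summed to 1003, 1021 and 972 CPM in WT and 598, 1374 and 546 in KO (6 fell, 60%, and 1 rose, 10%). The 9 endothelial markers summed to 236, 271 and 281 CPM in WT and 273, 256 and 202 in KO. Of these 1 fell (11.1%) and 2 rose (22.2%), shares below those of all genes. No marker of any of these lists was at 0 in any library. The part of these markers and of proliferation in the lower level of the ribosomal genes was not tested.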

How the data were processed

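The authors deposited counts, whole numbers of reads per gene without normalization, beside FPKM that the authors computed per gene and library. FPKM equalled count over gene length and total count, and is used for levels between genes. The sources name HTSeq, STAR and CASAVA 1.8.2, and differ on the kit (NEBNext Ultra RNA in the labels, Ovation Ultralow in the methods) and genome (mm10, or Hg38 in the methods). The symbols are mouse. Genes with counts in fewer than 4 libraries, or with no count of 5 or more, are not in the table. The authors' fold changes, p-values and false discovery rates, and 9 other per-sample columns of normalized or relative values, were not used.

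The fits used edgeR 4.0.16 in R 4.3.3 (TMM, filterByExpr at a minimum count of 10 and total of 15, quasi-likelihood F test, Benjamini-Hochberg adjustment over 16166 genes for 6 libraries and 16279 for 5). A gene was called at an adjusted p under 0.05. Alternatives were RLE and upper quartile scaling, other filters, DESeq2 1.42.0, limma-voom (limma 3.58.1), a replicate block, each library left out and the 4 libraries of the results table of the study. The fit was also run on simulated counts, drawn with the same dispersion for every gene and no outlying library, so that run does not judge the fit on these data. The labels give 3 tumors per group, and p-values measure the spread between these tumors. Counting limits cover counting error only.

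Members and gene lists were chosen with earlier results of these data known. Genes were named by a rule: in each subunit the 5 lowest and 3 highest by log2 fold change over 6 libraries, the 3 highest and 3 lowest by FPKM, members of fixed role, and the lowest and highest of each other list. Of 13 translation factors 12 were in the table. Positions and promoters are from RefSeq (GRCm38.p6), and overlaps of exons from GENCODE vM21 (GRCm38). Plots used matplotlib 3.10.9, and tables numpy 2.4.6 and pandas 2.3.3 under Python 3.11.15.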

Additional observations from a re-analysis of the deposited data

How the results depend on the processing

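Over all 6 libraries, 0 members were called lower and 0 higher with edgeR. The lower count was 5 with DESeq2 and 4 with WT 1, WT 2, KO 1 and KO 3 alone, and leaving out each library gave 0 to 34 lower and 0 to 1 higher, where 34 and 1 came without KO 2. Over 5 libraries, leaving out each in turn gave 0 (without KO 3) to 50 (without WT 1) lower and 0 to 1 higher. The medians of the members kept their direction in every alternative run. The log2 difference in the ratio of small to large subunit sums was 0.11, and 0.05 without Mrps25, an alternative chosen after seeing the data. Genes near 0 changed sign without being called. Leaving out each library gave, over 6 libraries, -0.03 to 0.12 for Mrpl11, -0.45 to 0.03 for Mrpl23, -0.14 to 0 for Mrps12, -0.11 to 0.01 for Mrps18a and -0.18 to 0.04 for Mrps34, with 0.02 for Mrps18a and 0.01 for Mrps34 in the 4 libraries. Over 5 it gave -0.06 to 0.02 for Mrps18a and -0.18 to 0.02 for Mrps34, and Mrps18a was 0.02 with RLE scaling and DESeq2.

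The replicate numbers of the labels were not taken as pairs: the deviations from the group mean of same-numbered libraries correlated at 0.544, 0.593 and -0.204 across genes. With the replicate block, 0 members were called over 6 libraries, and over 5 libraries 5 (6.49%) were lower, against 12.8% of all genes, and 0 higher, against 6.79%.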
